A study of Rattus norvegicus with 9 samples.

Results

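Fatty acid oxidation and ketone body genes were followed in the livers of 9 rats, 3 each in the normal control, model and tormentic acid (TA) groups. A list of 39 genes for uptake, activation, mitochondrial and peroxisomal oxidation of fatty acids, ketone body formation and their control was taken by gene name, and no measured value enters that rule. Of these, 37 were found among the 16730 genes that both deposited tables list. Acaa1a and Scp2 were not analysed here, and Echs1 had too few reads to be tested, so that 36 genes entered each comparison. All rats were male Sprague–Dawley rats, and all were fasted for 12 h before the liver was taken. Model and TA rats alike had been given CCl4, a liver toxin that causes fibrosis, by mouth at 2 ml/kg as a 50% oil solution, 2 times a week for 9 weeks. The TA rats then received TA, a plant triterpene, at 3 mg/kg for 6 weeks. No dose is named in the labels of the TA libraries, so the dose is the one in the series design, and the 3 libraries form 1 group. The normal rats were given saline in place of CCl4. Each library came from liver tissue, and the model and TA livers carry the label of a hepatitis stage.

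Fatty acids enter the hepatocyte, are joined to coenzyme A and cross the inner mitochondrial membrane as carnitine esters, and the β-oxidation spiral then shortens them to acetyl-CoA. Peroxisomes shorten very long and branched chains and the side chains of bile acid precursors. In the fasted liver much of the acetyl-CoA becomes ketone bodies, which other organs burn, and the nuclear receptor PPARα drives many genes of these steps.

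Between 13156735 and 18090405 reads were counted per liver, and the genes of the list took between 1.13% and 1.33% of them in the normal livers, between 1.20% and 1.69% in the TA livers, and 0.461%, 0.696% and 1.45% in the first, the second and the third model rat. The 50 genes with the most reads took 27.9% in the first model rat and 40.4% to 45.7% in the other 8 livers. Summed over 14 hepatocyte markers, among them albumin and transthyretin, normalized read counts (CPM, after TMM normalization) were 134300 to 166500 in the normal group and 109100 to 176800 in the TA group. They were 32410, 94190 and 111500 in the first, the second and the third model rat. The 9 myofibroblast and stellate markers found summed to 208 to 301 CPM in the normal livers, 691 to 1177 in the TA livers, and 12670, 1204 and 1479 in model rats in the same order. The 7 biliary markers summed to 2007, 183 and 113 CPM in model rats and to at most 51.6 elsewhere, and the 10 macrophage markers to 3526, 466 and 619 CPM in model rats against 337 to 496 in normal and 393 to 829 in the TA livers. Over all 9 livers the sums were 146 to 323 CPM for endothelial, 26.9 to 75.0 for lymphocyte, 26.6 to 477 for adipocyte (the highest in the first model rat) and at most 2.31 CPM for muscle or pancreas markers. Below, CPM and log2 fold changes are on the TMM scale unless another is named. In bulk liver tissue, fewer hepatocytes and less RNA per hepatocyte cannot be told apart. The part of these cell markers in the differences below was not tested, except that the genes were also scaled to the sum of the hepatocyte markers, most of which was albumin.

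The promoters of the listed genes were searched for the direct repeat that PPARα binds together with its partner RXR. RefSeq promoters of assembly GRCr8 matched 36 of the 39 symbols, and the 250 bases before each start site were searched on both strands for AGGTCA followed, after any 1 base, by a second AGGTCA, with at most 2 mismatches over both copies. A match was found in 5 of the 36 (13.9%), in 4 of 23 promoters of PPARα target genes (17.4%), in 1 of 12 of hepatocyte markers (8.33%) and in 3.11% of 27457 rat promoters. These shares depended on the limit. With at most 3 mismatches they were 27.8% of the listed and 21.0% of all promoters. With at most 1 they were 2.78% and 0.386%, and with 0 they were 0.0% and 0.0546%. The 5 matches are shown with up to 24 bases on each side, 5′ to 3′ on the strand of the gene, with the matched letters in capitals, because they are the nearest the listed promoters come to this element. That of Acadvl differs at 1 letter and lies on the strand of the gene, and the others differ at 2.
Acadvl, chr10:55236706-55236746, minus strand: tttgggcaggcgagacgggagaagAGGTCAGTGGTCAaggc
Crat, chr3:34087286-34087346, minus strand: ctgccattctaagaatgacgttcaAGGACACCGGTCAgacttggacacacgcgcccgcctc
Slc27a2, chr3:134258001-134258061, plus strand: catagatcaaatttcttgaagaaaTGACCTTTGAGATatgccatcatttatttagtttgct
Etfa, chr8:64788083-64788143, minus strand: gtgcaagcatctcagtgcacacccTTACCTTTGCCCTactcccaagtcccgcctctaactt
Echs1, chr1:204333625-204333685, minus strand: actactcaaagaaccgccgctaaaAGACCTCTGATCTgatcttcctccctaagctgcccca
In Slc27a2, Etfa and Echs1 the repeat reads on the opposite strand. The match lies 17 to 5 bases before the start in Acadvl and 76 to 64 bases before it in Slc27a2. In Crat it lies 223 to 211 bases before the start. A match describes these letters only, and no binding was measured.

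Levels of different genes were compared per length, as the FPKM values of the authors, which are scaled to the reads of each library. In the normal livers Eci1, an isomerase for unsaturated chains, was highest at 631 ± 56.2 FPKM (SD, n = 3). It was followed by Slc27a2 (573 ± 25.4), which activates very long chains, and by Etfb (541 ± 201), which passes electrons from the dehydrogenases to the respiratory chain. The thiolase Acaa2, the acyl-CoA synthetase Acsl1 and the medium-chain dehydrogenase Acadm stood next at 504, 419.8 and 358 FPKM. At the other end were the regulator Ppara at 8.67, Acsl3 at 2.41 and the coactivator Ppargc1a at 0.295 FPKM. In 31 of the 36 neighbouring pairs of this order the normal livers overlapped, so that most neighbours did not differ beyond their spread. Echs1, the enoyl-CoA hydratase of the spiral, stood last at 0.135 ± 0.174 FPKM, with 0 to 7 reads in every one of the 9 livers. The gene is known to be active in most tissues, and why so few reads were counted on it was not tested.

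In Model VS Normal, 33 of the 36 genes were lower in the model group and 3 were higher with TMM normalization, but 18 were lower and 18 higher when scaled to the hepatocyte markers. With TMM the list had a median log2 fold change of -0.93, against 0.02 over all 12730 genes tested, of which 49.0% were lower. At an adjusted p under 0.05 (edgeR's quasi-likelihood test, Benjamini-Hochberg) 0 of the 36 genes were called, where 7.87% of all tested genes were. Of these 12730 genes, 873 were called as higher and only 129 as lower. At an unadjusted p under 0.05 there were 4, all lower, against 28.9% of all genes in either direction and 10.2% lower. DESeq2 called 3 (Acads, Etfb and Acox2) at its adjusted p, where it called 20.8% of all genes, and limma voom with sample quality weights called 20, against 27.0% of all genes. The same 4 genes had a log2 fold change beyond -1, where 5.55% of all genes passed both thresholds as lower. For 14 genes all 3 model livers lay below all 3 normal livers, against 17.4% of all genes, and for none did they all lie above, against 20.8%.

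Among the fits that left out 1 rat, these counts moved most without the third model rat. Without it, 13 genes were called at an adjusted p under 0.05 (against 18.6% of all genes) and 29 passed the unadjusted threshold with a log2 fold change beyond 1. The share of all genes passing both of the latter was not counted in that fit. The median of the list without the third model rat was -1.58, against 0.02 over all genes. Without the first model rat these medians were -0.60 and -0.04. Without the first model rat Acox2 alone was called, against 6.95% of all genes, and the unadjusted count fell to 2 without the first normal rat and to 1 without the second model rat.

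**Figure D1:**
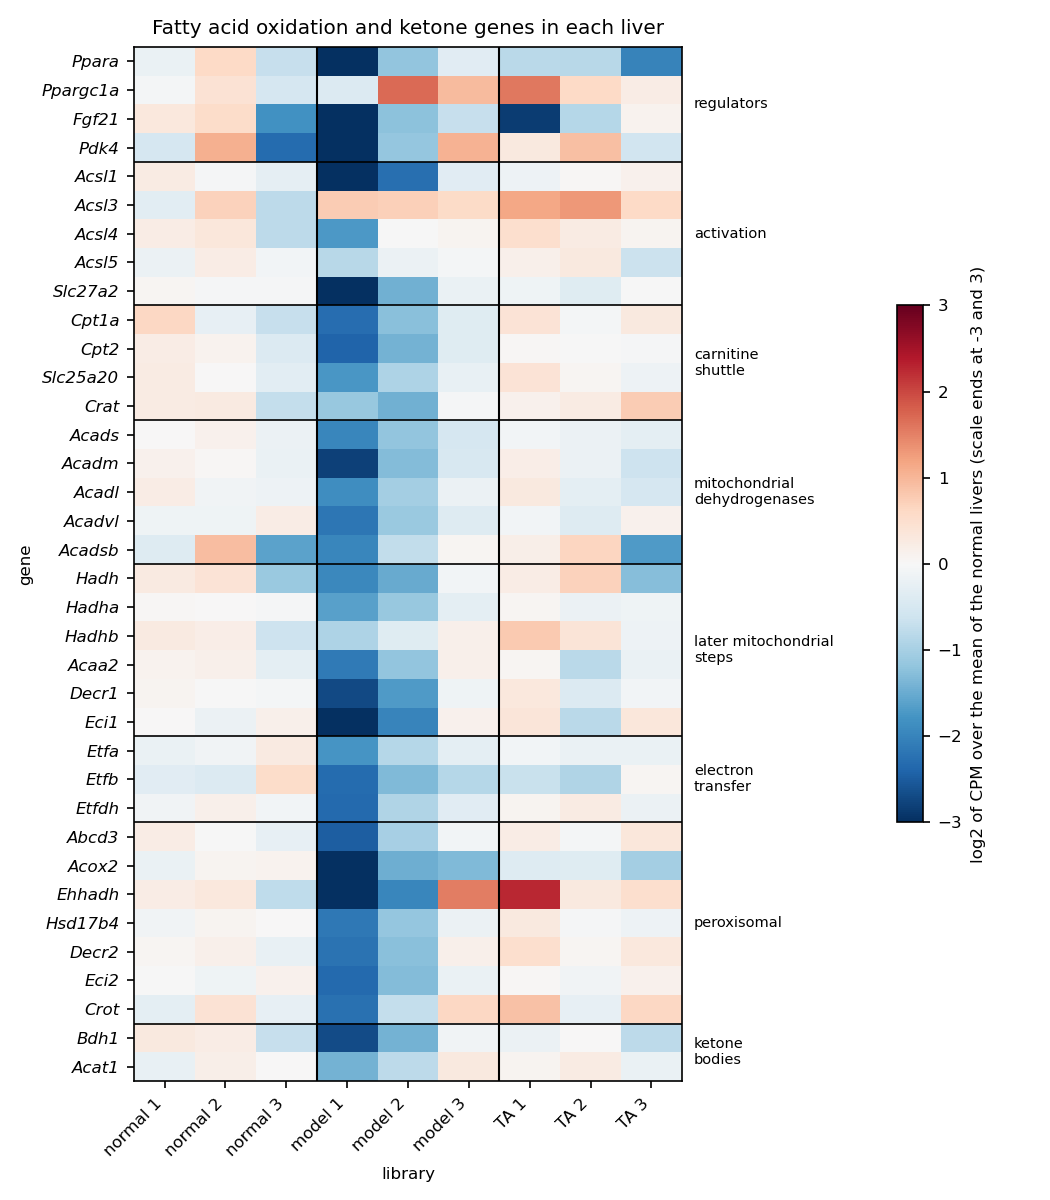
Each cell gives the log2 of a gene's CPM (TMM) in 1 liver over the mean of the normal livers, for the 36 tested genes in rows, grouped by role, and the 9 livers in columns. On this scale the first model rat is blue in nearly every row, the third lies near the normal level in most, and Acsl3 and Ppargc1a differ from the rest; scaled to the hepatocyte markers, 18 of the 36 genes were higher in the model group.

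The regulators and fasting signals were variable within every group. Ppara, the fatty acid receptor, was at 19.1, 32.8 and 13.5 CPM in normal rats, 1.57, 9.60 and 17.3 in model rats and 12.5, 12.3 and 5.44 in TA rats. The model rats overlapped the normal rats, while all TA rats lay below all normal rats. The log2 fold change came to -1.21 (standard error, SE, 0.72, adjusted p = 0.301) for Model VS Normal, 0.10 in TA VS Model (0.73, adjusted p = 0.955) and -1.15 in TA VS Normal (0.42, unadjusted p = 0.0245, adjusted p = 0.418). Fgf21 encodes a fasting hormone that the liver secretes and PPARα induces. Its CPM were 50.9, 60.5 and 11.7 in normal, 4.44, 17.4 and 25.2 in model and 5.69, 22.8 and 44.1 in TA rats. The 3 groups overlapped, and the adjusted p was at least 0.236 in the 3 comparisons. Pdk4, which blocks the use of pyruvate when fat is burned, was at 79.0, 236 and 22.6 CPM in normal, 10.9, 50.3 and 233 in model and 139, 210.4 and 75.4 in TA rats, again with overlap. In the normal group the second rat was highest for all 4 genes and the third lowest. Ppargc1a, a coactivator of PPARα, was counted at 8 to 47 reads per liver, and it was 1 of the 3 genes with a higher mean in the model group (log2 fold change 0.95, adjusted p = 0.344).

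Among the genes for uptake and activation, Acsl1, the main long-chain acyl-CoA synthetase of liver, differed most. It was at 2382, 1966 and 1660 CPM in normal rats, 152, 416 and 1570 in model rats and 1816, 2045 and 2177 in TA rats. The model rats lay below every normal and every TA rat, the third by little. Its log2 fold changes were -1.49 (SE 0.81, adjusted p = 0.259) for Model VS Normal and 1.50 (0.81, adjusted p = 0.392) for TA VS Model, and in TA VS Normal it was -0.02 (0.22). Slc27a2 was also lower in every model rat than in every normal rat, from 206 to 1770 against 1972 to 2095 CPM. Acsl3, a synthetase linked to lipid droplets, went the other way. It was at 6.31, 12.7 and 4.61 CPM in normal rats, 13.5, 12.9 and 11.7 in model rats and 17.7, 19.4 and 11.9 in TA rats and the groups overlapped in all comparisons. Its log2 fold change in TA VS Normal was 1.01 (unadjusted p = 0.0338, edgeR adjusted p = 0.451). For Acsl4 and Acsl5 the log2 fold changes were -0.35 and -0.31 in Model VS Normal, and 0.61 and 0.85 with hepatocyte marker scaling.

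The carnitine shuttle held the 3 genes of the list with the smallest p-values in TA VS Model. Cpt1a, which controls the entry of long chains into mitochondria, was at 569.6, 313 and 228 CPM in normal rats, 76.4, 155 and 288 in model rats and 491, 353 and 455 in TA rats. All TA rats lay above all model rats (log2 fold change 1.33, SE 0.51, unadjusted p = 0.0307, adjusted p = 0.287), and the third model rat lay above the third normal rat. Cpt2, which releases the chain inside, was at 189, 173 and 122 CPM in normal, 30.4, 60.8 and 126 in model and 166, 162 and 157 in TA rats. The TA rats differed little among themselves, and the third model rat again lay within the normal range. The log2 fold change came to -1.16 in Model VS Normal (0.50, unadjusted p = 0.0479, adjusted p = 0.170) and 1.17 in TA VS Model (0.48, unadjusted p = 0.0430, adjusted p = 0.308). Crat, which moves short chains, was at 110.5, 111 and 56.7 CPM in normal, 42.4, 34.2 and 90.4 in model and 102, 109.5 and 157 in TA rats. The TA rats lay above the model rats (1.14, SE 0.41, unadjusted p = 0.0247, adjusted p = 0.279), and the normal rats overlapped both. With hepatocyte marker scaling the TA VS Model values of Cpt1a, Cpt2 and Crat fell to 0.67, 0.49 and 0.23 and none of the 3 had an unadjusted p under 0.05 in edgeR. The carrier Slc25a20 was higher in every TA rat (189 to 277 CPM) than in every model rat (62.0 to 179.5).

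All 5 mitochondrial acyl-CoA dehydrogenases, which open the spiral, were lower in the model group, with log2 fold changes from -1.23 for Acadm to -0.66 for Acadsb. With hepatocyte marker scaling Acadl and Acadsb were higher (0.13 and 0.34), and Acadm, Acadvl and Acads were at -0.36, -0.10 and -0.04. Acads, the short-chain enzyme, was at 243, 265 and 213 CPM in normal rats, 62.3, 107 and 170 in model rats and 228, 211 and 196 in TA rats. The model rats stood apart from both other groups, which overlapped. The log2 fold change came to -1.09 in Model VS Normal (SE 0.40, unadjusted p = 0.0255, adjusted p = 0.121) and 0.91 in TA VS Model (0.40, adjusted p = 0.322). Acadm, Acadl and Acadvl were likewise below every normal rat in every model rat, and Acadsb, an enzyme for branched chains, overlapped.

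The 6 tested genes for the later steps were lower in the model group by log2 fold changes from -1.12 for Decr1, a reductase for unsaturated chains, to -0.30 for Hadhb, a subunit of the trifunctional protein, and 4 of them (Hadh, Hadha, Hadhb and Acaa2) were higher when scaled to the hepatocyte markers. Hadha, its partner in that protein, was lower in every model rat (181 to 456 CPM) than in every normal rat (545 to 576), whereas Hadhb overlapped. Eci1 was at 771, 678 and 853 CPM in normal rats and 82.8, 195 and 842 in model rats. The third model rat thus stood at the normal level, and the first had 10.8% of the normal mean.

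The electron transfer genes Etfa, Etfb and Etfdh were all lower in every model rat than in every normal rat. With hepatocyte marker scaling their log2 fold changes in Model VS Normal were 0.14, -0.41 and -0.06. Etfb was at 464, 443 and 859.9 CPM in normal rats, 119, 233 and 325 in model rats and 374, 314 and 612 in TA rats. The third normal and the third TA rat were high, and the model rats were below all normal rats but not below all TA rats. The log2 fold change came to -1.38 in Model VS Normal (SE 0.49, unadjusted p = 0.0222, adjusted p = 0.113), 0.94 in TA VS Model (0.47, adjusted p = 0.364) and -0.47 in TA VS Normal (0.34, adjusted p = 0.796).

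Among the peroxisomal genes, Acox2 and Ehhadh behaved differently. Acox2, the oxidase for branched chains and bile acid precursors, was at 492, 596 and 604 CPM in normal rats, 47.8, 204 and 224 in model rats and 432, 441 and 279.9 in TA rats. The groups did not overlap in any of the 3 comparisons, the TA rats lying between the others (exact permutation test, two-sided, p = 0.1 in each, the smallest p that 3 rats against 3 allow). It had the largest difference of the list in Model VS Normal, -1.83 on the log2 scale (SE 0.57, unadjusted p = 0.0122, adjusted p = 0.0843). Against the model group the TA group was at 1.28 (0.57, unadjusted p = 0.0560, adjusted p = 0.326), and in TA VS Normal -0.58 (0.24, unadjusted p = 0.0405, adjusted p = 0.481).

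Ehhadh, the bifunctional enzyme of the peroxisomal spiral and a classical PPARα target, was chosen for description after its values were seen. It was at 381, 411 and 194 CPM in normal rats, 36.6, 84.7 and 951 in model rats and 1581, 399.6 and 465 in TA rats. The third model rat was at 11.2 times the second, the largest such ratio of the list, and the first TA rat at 3.96 times the second. The log2 fold change in Model VS Normal was 0.12 (SE 1.05, adjusted p = 0.952), but -2.45 without the third model rat (adjusted p = 0.0230, against 0.199 to 0.967 over the other alternatives) and -1.41 with limma voom (adjusted p = 0.199). In TA VS Normal it was 1.28 (0.55, unadjusted p = 0.0453, adjusted p = 0.508), with overlap between the groups. Hsd17b4, the other bifunctional enzyme, and Eci2 were lower in every model rat than in every normal and every TA rat, at 130 to 512 CPM and 129 to 564 CPM. With hepatocyte marker scaling their log2 fold changes in Model VS Normal were -0.01 and -0.13. On that scale 3 of the 7 peroxisomal genes were higher and 4 lower, with Acox2 at -0.99.

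**Figure D2:**
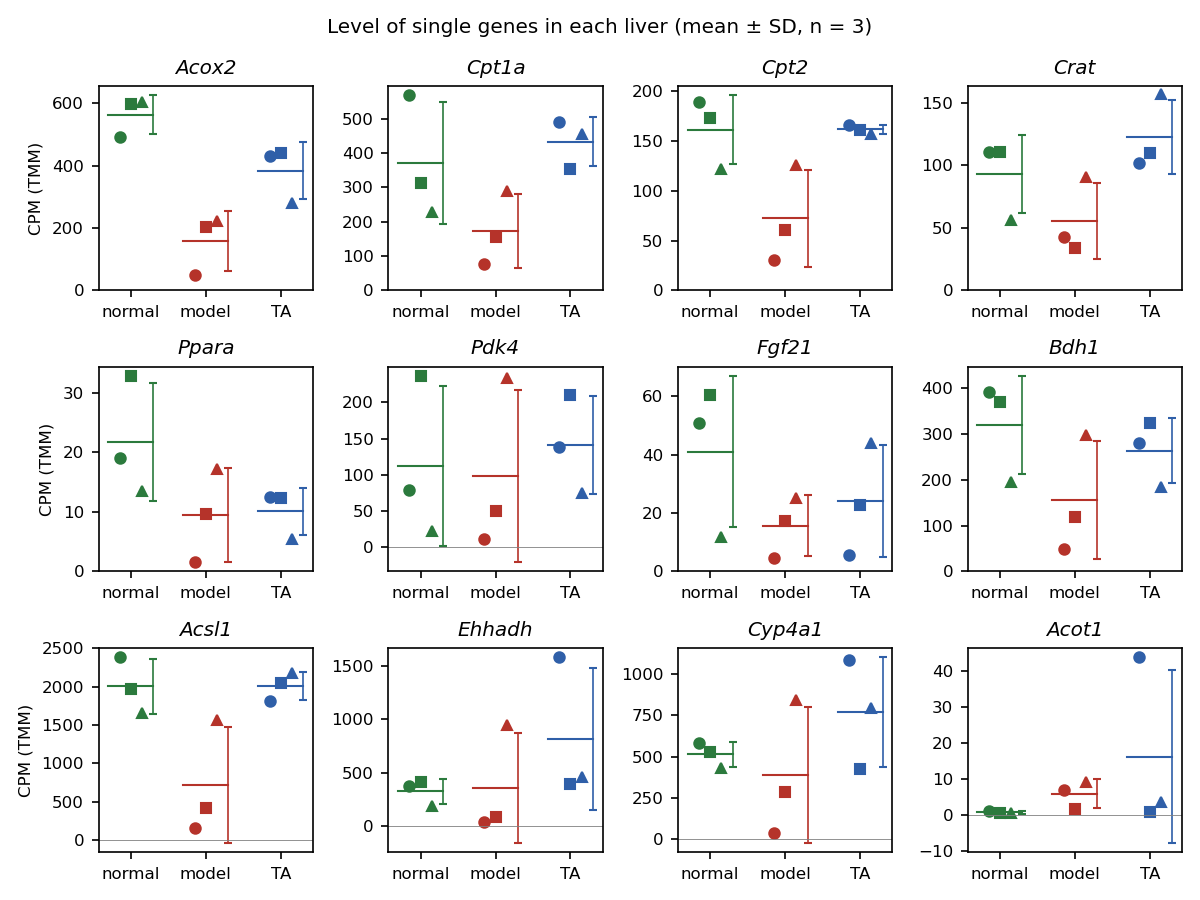
CPM (TMM) of 12 genes in each of the 3 normal, 3 model and 3 TA livers, with circles, squares and triangles for the first, the second and the third rat of a group, lines for the mean and bars for the SD (n = 3). In Acox2 the 3 groups separate. In Ehhadh and Cyp4a1 the third model rat lies above all normal rats, and in Ehhadh and Acot1 the first TA rat is the highest of all livers.

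The ketone body genes of the list overlapped between groups in all 3 comparisons. Bdh1, which interconverts acetoacetate and β-hydroxybutyrate, was at 391, 369.8 and 196 CPM in normal rats, 49.4, 119 and 298 in model rats and 281, 323 and 185 in TA rats. Acat1, the thiolase at the start of the pathway, was at 217, 283 and 255 in normal, 93.9, 146 and 307 in model and 269, 301 and 218 in TA rats. For both genes the first and the second model rats were below every normal rat and the third was not. The log2 fold changes in Model VS Normal were -1.03 (SE 0.63, adjusted p = 0.308) for Bdh1 and -0.47 (0.45, adjusted p = 0.520) for Acat1, against -0.17 and 0.53 with hepatocyte marker scaling. Between TA and model rats they were 0.76 (0.61, adjusted p = 0.539) and 0.53 (0.47, adjusted p = 0.573), against 0.14 and -0.25 on that scale.

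The 3 model rats differed from each other in the same order for most of the list. In 33 of the 36 genes the first model rat was lowest and the third highest, an order that 25.6% of all tested genes and 7 of 14 hepatocyte markers had. The exceptions were Ppargc1a, Acsl3 and Crat. The median level over the 36 genes was 21.4%, 44.4% and 90.4% of the normal mean in the 3 rats in turn. The hepatocyte markers stood at 14.4%, 65.8% and 63.6%, so that the second and the third rat stood close. Of the 36 genes, 34, 28 and 14 were below every normal rat in the 3 model rats in turn. Of the 14 hepatocyte markers, 13, 9 and 11 were. The share of all genes was not counted, so these counts stand without it. The third model rat lay above the second in 34 of the 36 genes, against 49.6% of all tested genes. Besides Ehhadh, the largest ratios of the third to the second were 4.64 for Pdk4, 4.31 for Eci1 and 3.77 for Acsl1, and the smallest were 0.594 for Ppargc1a and 0.910 for Acsl3. No test was made between single rats.

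**Figure D3:**
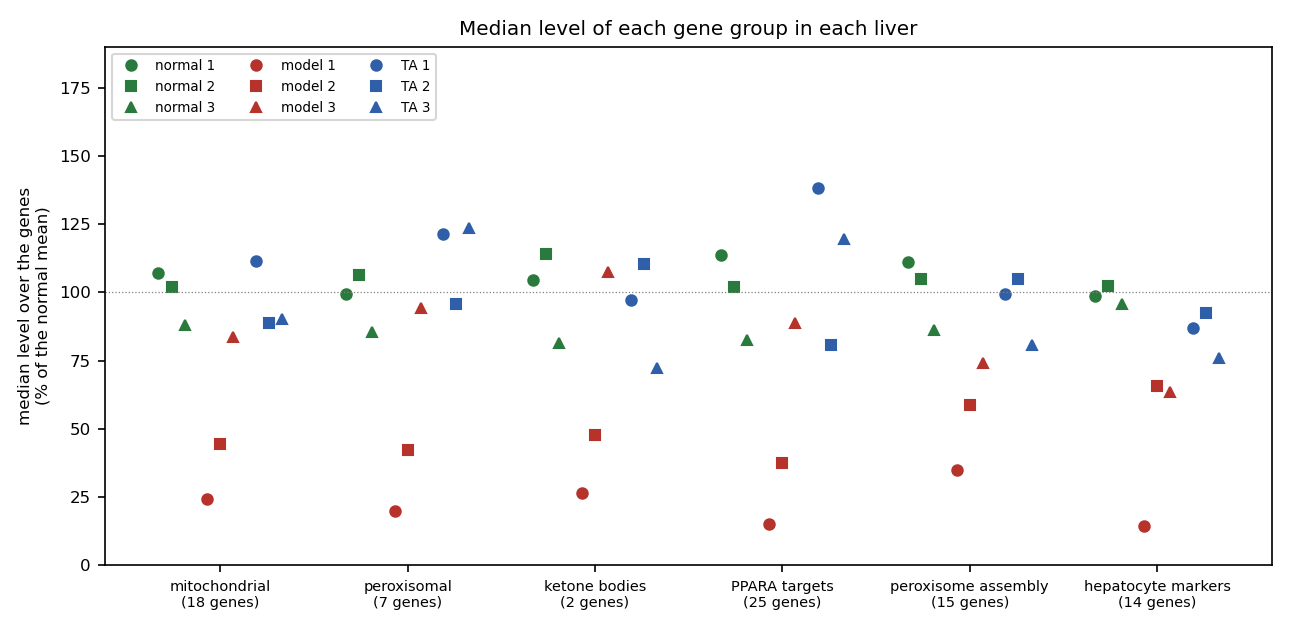
Each point gives, for 1 liver, the median over a group of genes of the level in percent of the normal mean (TMM CPM); colours mark the groups and shapes the rat numbers. In the mitochondrial, peroxisomal, ketone body and PPARα target genes the 3 model rats lie far apart in the same order, while among the hepatocyte markers the second and the third lie together (65.8% and 63.6%).

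Between the TA and model groups, 35 of the 36 genes were higher in the TA group with TMM normalization, against 26 with hepatocyte marker scaling and 32 with library totals. Ppargc1a was lower (-0.04 on the log2 scale). The median log2 fold change came to 0.95, against -0.00 over all 12781 genes tested, of which 49.7% were higher. At an adjusted p under 0.05 there were 0 (0.0% of all genes in edgeR's quasi-likelihood test), and DESeq2 and limma voom also called 0 of the list, against 4.23% and 1.32% of all genes. At an unadjusted p under 0.05 there were 3, Cpt1a, Cpt2 and Crat, against 4.17% of all genes as higher. All 3 had a log2 fold change above 1, where 2.11% of all genes passed both thresholds as higher. For 15 genes every TA rat lay above every model rat, against 10.3% of all genes. These included all 4 of the carnitine shuttle and 4 of the 7 peroxisomal genes. Here too leaving out the third model rat moved the unadjusted count most, to 29 genes with a log2 fold change beyond 1. The share of all genes passing both thresholds was not counted in that fit. The median of the list was then 1.56, against -0.00 over all genes. The count was 0 without the first or the second model rat or the third TA rat, 1 without the first TA rat, and the median was 0.63 without the first model rat.

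In TA VS Normal the list was split, with 17 genes above and 19 below the normal control group on the TMM scale, but 31 above and 5 below when scaled to the hepatocyte markers. The list had a median of -0.01, the same as over all 12179 genes tested (-0.01), of which 51.0% were lower. At an adjusted p under 0.05 there were 0, against 0.263% of all genes (1.67% with the replicate number as a block), and DESeq2 and limma voom called 0 of the list as well, against 2.96% and 1.03% of all genes. At an unadjusted p under 0.05 there were 4, against 9.43% of all genes, namely Acsl3 and Ehhadh higher and Ppara and Acox2 lower. With the replicate block these 4 were joined by Etfb (lower) and Hadhb (higher), 6 in all, against 18.7% of all genes. All but Acox2 had a log2 fold change beyond 1, where 5.25% of all genes passed both thresholds. That count of 3 was 1 without the first or the third normal rat or the first TA rat. Every TA rat lay below every normal rat for Ppara and Acox2, against 5.81% of all genes, and above for no gene, against 9.07%. The 3 comparisons share libraries and are not independent.

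**Figure D4:**
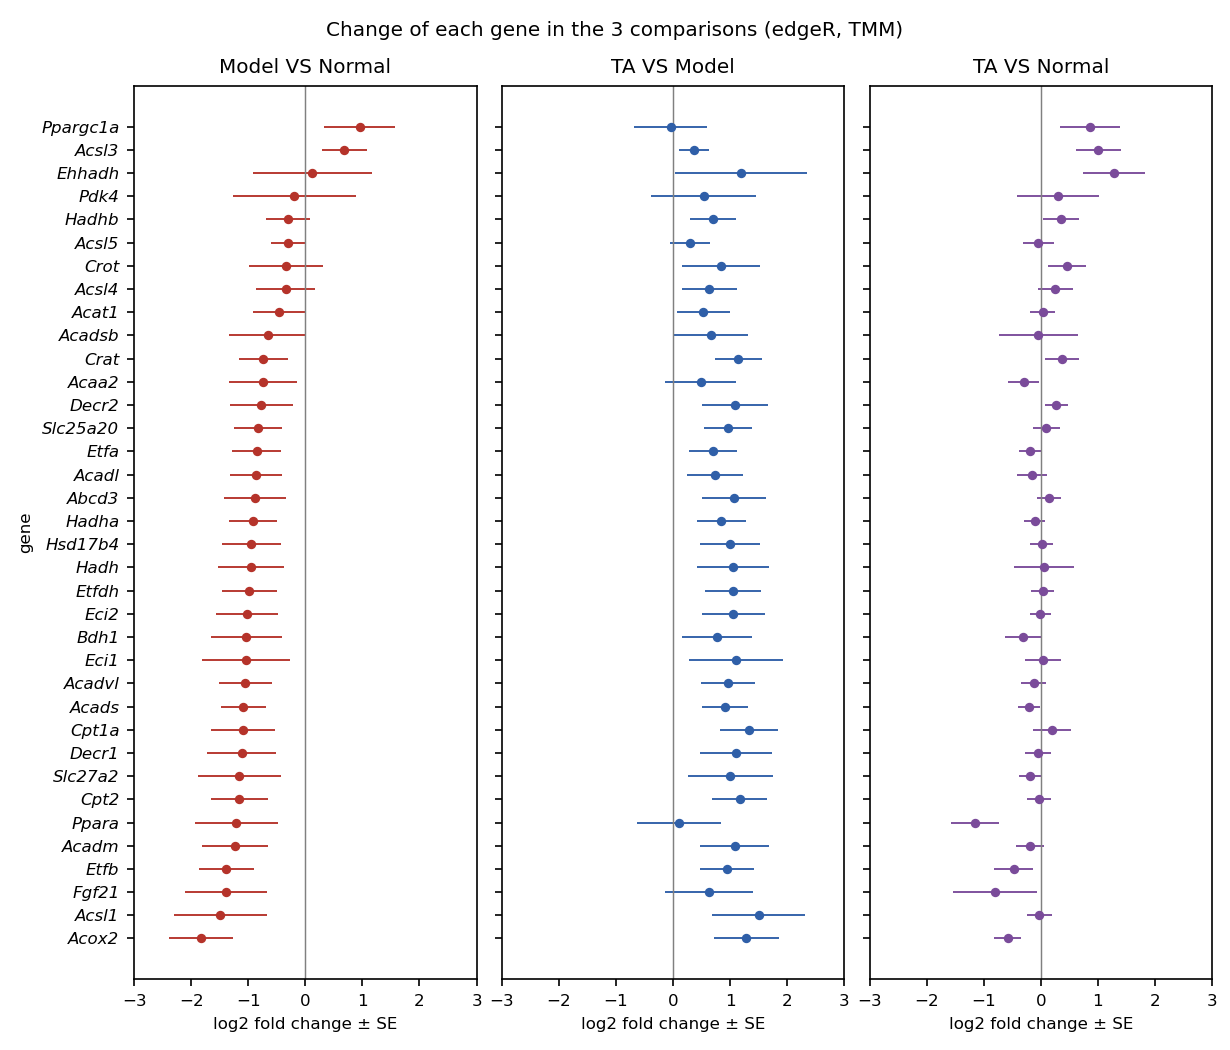
Log2 fold change with its SE for the 36 genes in Model VS Normal, TA VS Model and TA VS Normal (edgeR, TMM, 3 livers a group), ordered by Model VS Normal. Most genes lie near -1 in the first panel, near 1 in the second and near 0 in the third on this scale, which hepatocyte marker scaling shifts to 18 genes on each side of 0 in the first panel, and Ehhadh and Pdk4 have the widest bars in the first.

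The direction of these differences depended on what the reads were scaled to. The summed hepatocyte markers were mostly Alb, at 74880 to 105400 CPM in normal rats, where the sum was 134300 to 166500. With library sizes set to that sum, 9 of the 14 markers were still lower in Model VS Normal. On that scale 18 genes of the list were higher and 18 lower, and the median was 0.03 while that of all genes moved to 1.36. Acox2 was at -0.99, and Acsl3 and Ppargc1a were at 2.12 and 1.93 (unadjusted p = 0.0132 and 0.0267 in edgeR), and no gene of the list passed an adjusted p of 0.05. Between the TA and model groups 26 genes were then higher and 10 lower, with a median of 0.21 against -1.10 over all genes. With library totals alone 27 genes were lower and 9 higher in Model VS Normal, 32 higher and 4 lower in TA VS Model, and 29 higher and 7 lower in TA VS Normal. The medians of all genes were then 0.65, -0.48 and 0.18. In TA VS Normal the split was 23 higher to 13 lower with upper quartile normalization and 31 to 5 with the hepatocyte markers. Relative to the median of all genes, the list lay between -1.32 and -0.95 under the 5 normalizations in Model VS Normal. Another scaling moves the list and all genes together, so this range cannot tell which scaling holds. The hepatocyte markers lay as low, at a median of -1.03 against 0.02 over all genes with TMM. As a share of the summed hepatocyte markers, the 36 genes took 9.23% to 10.3% in normal rats, 8.42%, 6.40% and 12.4% in model rats and 15.6%, 7.54% and 12.7% in TA rats. These shares overlapped between the groups.

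**Figure D5:**
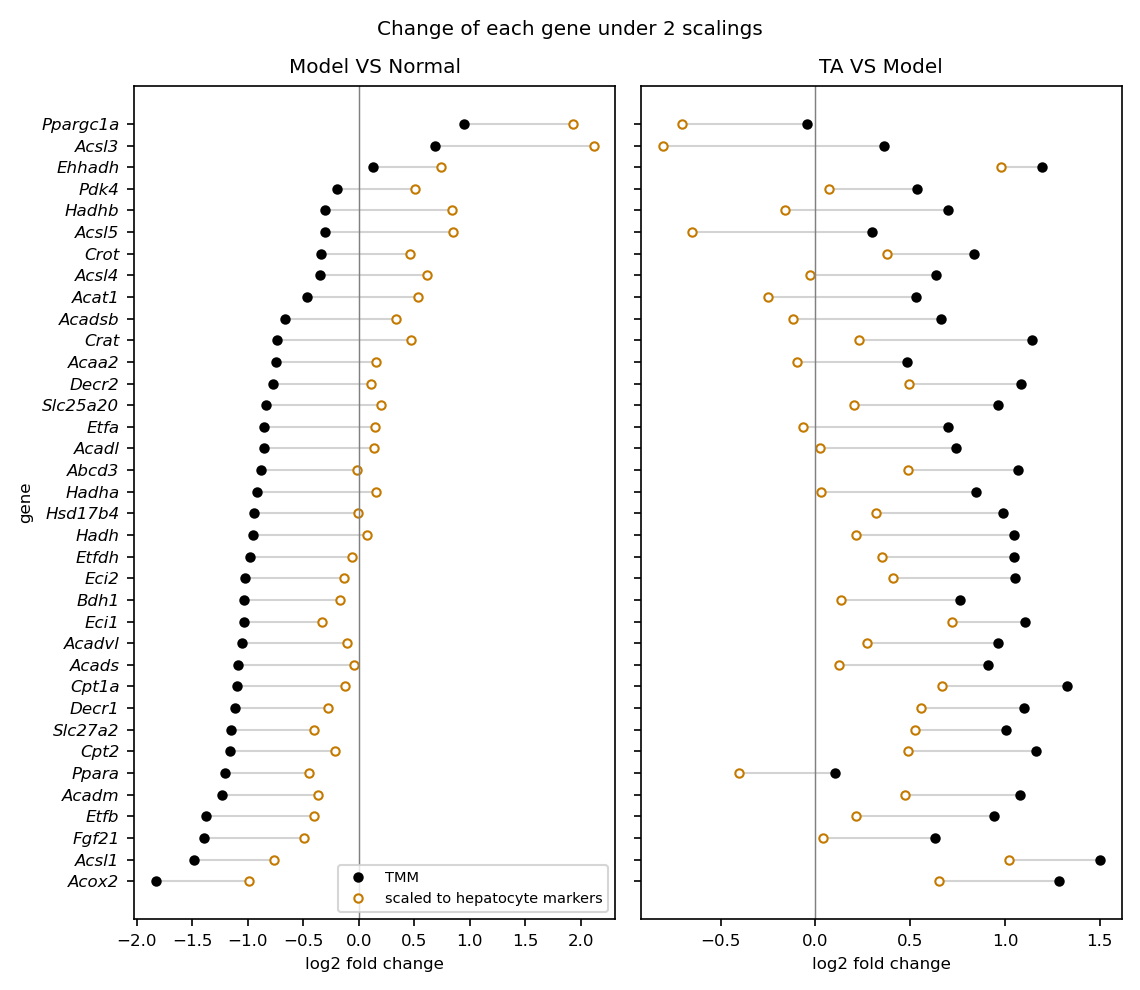
Log2 fold change of each gene with TMM normalization (black) and with libraries scaled to the hepatocyte markers (open orange), joined by a line, for Model VS Normal and TA VS Model. In Model VS Normal the second scaling moves every gene to the right, and the 36 genes then lie 18 on each side of 0.

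Genes of the same pathways outside the list were counted as well. Of 37 other tested genes of fatty acid oxidation, 28 were lower and 9 higher in Model VS Normal, and 14 lower and 23 higher with hepatocyte marker scaling. At an adjusted p under 0.05, 873 of all 12730 genes were called as higher and 129 as lower. Of the 37, 2 had risen, the acetyl-CoA synthetase Acss1 (log2 fold change 2.20, adjusted p = 0.0198) and the thioesterase Acot9 (2.24, adjusted p = 0.0462), and 0 had fallen. Both calls were lost when any 1 of the 3 normal rats was left out (adjusted p at least 0.0822), and that of Acot9 also without the first or the second model rat. Without the first, the second or the third normal rat, only 0.401%, 0.0% and 0.0% of all tested genes were called. Without the first or the second model rat, 6.95% and 4.7% were. With all rats kept, 5 of the 37 were higher and 10 lower at an unadjusted p under 0.05, against 2377 and 1297 of all 12730 genes. Abcd2, a peroxisomal transporter, had the largest difference (4.38, adjusted p = 0.0546), from at most 0.332 CPM in normal rats to 0.919 to 4.01 in model rats. The TA group was higher than the model group for 28 (22 with hepatocyte marker scaling), with the largest differences in Hacl1 (2.02, adjusted p = 0.325), an enzyme for branched chains, and Acsm3 (1.53, adjusted p = 0.258). In that comparison 0 passed an adjusted p of 0.05. At an unadjusted p under 0.05, 9 were higher and 2 lower, against 533 and 1466 of all 12781 genes.

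Of the 11 other ketone body genes, Oxct1, which starts the use of ketone bodies and is known to be low in hepatocytes, rose in the model group. It was at 2.66, 1.99 and 1.01 CPM in normal rats, 31.5, 6.91 and 6.93 in model rats and 6.33, 4.56 and 3.58 in TA rats. The groups did not overlap in any comparison (log2 fold change 3.01, adjusted p = 0.0440 for Model VS Normal, and -1.65, adjusted p = 0.292 for TA VS Model). The first model rat was highest, and the part of other cell types in these differences was not tested. At an adjusted p under 0.05, 873 of all 12730 genes were called as higher in Model VS Normal. Without any 1 of the normal rats the call of Oxct1 was lost (adjusted p 0.110 to 0.169), in fits that called at most 0.401% of all genes. Hmgcll1, the largest after Oxct1 in Model VS Normal (1.34, adjusted p = 0.412), was at most 2.24 CPM. Of these 11 genes 5 were higher and 6 lower in Model VS Normal, and 8 higher and 3 lower in TA VS Model, which became 8 and 3, and 3 and 8, with hepatocyte marker scaling.

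Of 25 tested PPARα target genes, 22 were lower in Model VS Normal (14 with hepatocyte marker scaling), 1 of which, the lipase inhibitor G0s2, fell at an adjusted p under 0.05 (log2 fold change -2.26, adjusted p = 0.0438). The thioesterase Acot1 rose (3.30, adjusted p = 0.0418), at a threshold that called 873 of all 12730 genes as higher and 129 as lower. The calls of G0s2 and Acot1 and that of Pex14 below were lost without any 1 of the normal rats (adjusted p 0.0879 to 0.171). That of Acot1 was also lost without the first model rat, and those of G0s2 and Pex14 without the second. The fits without a normal rat called at most 0.401% of all genes. The call of G0s2 was also lost with hepatocyte marker scaling (-1.30, adjusted p = 0.0746), that of Acot1 with limma voom (1.80, adjusted p = 0.114) and with all 9 libraries in 1 fit (adjusted p = 0.114), and that of Pex14 with library totals (-0.52, adjusted p = 0.154). Their median level was 14.9%, 37.3% and 88.9% of the normal mean in model rats and 138%, 80.8% and 119.6% in TA rats. Against the model group, 23 were higher in the TA group (20 with hepatocyte marker scaling), and the ω-hydroxylases Cyp4a8 and Cyp4a2 differed most (2.34 and 2.10, adjusted p = 0.264 and 0.308). Acot1 was at 0.996, 0.450 and 0.336 CPM in normal rats, 6.91, 1.51 and 9.19 in model rats and 43.8, 0.845 and 3.65 in TA rats, so that its mean in the TA group came mostly from the first TA rat. Of 15 tested genes for peroxisome assembly, 14 were lower in Model VS Normal but 4 with hepatocyte marker scaling, and Pex14, part of the import machinery, fell (-1.10, adjusted p = 0.0359), though it was at 0.10 (adjusted p = 0.902) on that scale. The largest differences were in Pex11a, which divides peroxisomes (-1.56 for Model VS Normal and 1.78 for TA VS Model), and Pex5, the import receptor (-1.32 and 1.37), none at an adjusted p under 0.05. Of the 14 hepatocyte markers, all were lower in Model VS Normal and 13 higher in TA VS Model, with 0 at an adjusted p under 0.05 in either. At an unadjusted p under 0.05 there were 1 and 0, against 10.2% of all genes as lower and 4.17% as higher. Ttr (-1.76) and Hpd (-1.73) differed most in the first comparison, and Ass1 (1.44) and Hpd (1.41) in the second, so that the hepatocyte markers and the list had similar medians, -1.03 and -0.93 for Model VS Normal, then 0.99 and 0.95 between TA and model rats.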

How the data were processed

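The authors sequenced liver RNA of 9 rats, 3 per group (normal control, model, TA). Reads were aligned with STAR, and HTSeq-count gave the reads of each gene. The published methods name a human genome and the submitters' processing notes a mouse build, while the symbols are those of rat genes, so that the reference is uncertain. The deposited counts are raw reads per gene, without normalization, and all tests started from them. The FPKM values the authors deposited, counts scaled to gene length and library total, were used for levels between genes. The tables also hold values normalized with DESeq2 size factors and the authors' own fold changes, p-values and adjusted p-values, none of which was used here.

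The software was DESeq2 1.42.0, edgeR 4.0.16 and limma 3.58.1 in R 4.3.3. Groups were compared by the quasi-likelihood test of edgeR, with TMM normalization and filterByExpr (minimum count 10), fitted over all genes with the libraries of the 2 groups compared, and p-values were adjusted over all genes tested (Benjamini-Hochberg). Standard errors are the log2 fold change over the square root of F. The CPM printed come from 1 TMM scaling of the 9 libraries. Only genes in both tables could enter TA VS Normal. Nothing says how far the libraries of a group were handled separately beyond coming from separate rats. The depth of 13156735 to 18090405 reads left counting error small for all but the lowest genes, and Ppargc1a and Echs1 were the only listed genes under 50 reads in every library.

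The listed genes and the other gene lists were chosen with earlier results of these data known. Values in every liver are given for listed genes with an adjusted p under 0.05, or an unadjusted p under 0.05 without overlap of the groups, in any comparison, and for Ppara, Cpt1a, Pdk4, Fgf21, Bdh1 and Acat1. From each other list the 2 genes with the largest absolute log2 fold change are named, for Model VS Normal and for TA VS Model, other than genes not reported here. Ehhadh, Acsl1, Eci1, Acsl3, Acss1, Pex14, Cyp4a1 and the other genes printed beyond this rule were chosen after their values were seen. The replicate numbers come from the labels and name different rats. Over 12998 genes, the deviations of same-numbered rats correlated at r = 0.23, 0.37 and 0.45 in TA VS Normal, which met the limit of 0.1 for treating the numbers as pairs there. They correlated at 0.21, -0.05 and -0.05 for Model VS Normal and at 0.21, -0.04 and 0.00 for TA VS Model, where only the first rats met it. Rats of different numbers correlated at -0.40 to 0.14 in TA VS Normal, -0.16 to 0.20 in Model VS Normal and -0.21 to 0.19 in TA VS Model. Some of these also passed 0.1, so the limit alone does not set pairs apart. Tried as alternatives were limma voom (sample quality weights), DESeq2, other forms of the fit, other normalizations and filters, 1 fit of all 9 libraries, the replicate block, and each library left out.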

Additional observations from a re-analysis of the deposited data

How the results depend on the processing

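In Model VS Normal, the count of listed genes at an adjusted p under 0.05 was 0 with edgeR's main settings, 3 with DESeq2, 20 with limma voom, 1 with all 9 libraries in 1 fit, and 0 to 13 when single rats were left out, while the share of all genes called was 7.87%, 20.8%, 27.0%, 13.5% and 0.0% to 18.6%. The count with a log2 fold change beyond 1 at an unadjusted p under 0.05 was 4, and it was 10 with DESeq2, 20 with limma voom, 2 with upper quartile normalization, 2 with the hepatocyte markers, 7 with the replicate block, and 1 to 29 when single rats were left out. In TA VS Model that count was 3, and it was 8 with DESeq2, 16 with limma voom, 1 with library totals, 0 with the hepatocyte markers, 6 with all 9 libraries in 1 fit, 9 with the replicate block, and 0 to 29 when single rats were left out. The share of all genes that passed both thresholds was not counted under the alternatives, so these counts stand without it. The median in TA VS Model was 0.95, and it was 0.60 with library totals, 0.21 with the hepatocyte markers, 1.12 with the replicate block, and 0.63 to 1.56 when single rats were left out. In TA VS Normal the median of -0.01 was 0.17 with library totals and 0.28 with the hepatocyte markers, and the count of 3 was 1 with all 9 libraries in 1 fit and 1 to 2 when single rats were left out. With the replicate block it stayed at 3 and no listed gene was called at an adjusted p under 0.05 in any comparison. In the comparisons with the model group only the first rats deviated together (r = 0.21 in each), so the block is given for those comparisons only here. Ehhadh turned from 0.12 to -2.45 in Model VS Normal without the third model rat (adjusted p = 0.0230). Of 648 single-gene values under the alternatives in Model VS Normal, 31 changed direction and 38 passed the adjusted threshold, Ehhadh being in both counts. In TA VS Model and TA VS Normal, 21 and 73 of 648 changed direction and none passed it. The cause was not tested, other than that leaving out rats leaves fewer samples. Depth limits the lowest genes, Ppargc1a and Echs1.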
